A study of Bos taurus with 30 samples.

Results

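The glucose transporter genes were examined as a set of 10 genes, chosen by name: SLC2A1, SLC2A3, SLC2A4, SLC2A5, SLC2A6, SLC2A8, SLC2A10, SLC2A12, SLC2A13 and SLC5A1. Of these 10 symbols, 9 had a gene in the authors' annotation, and they took up 10 of the 27607 gene IDs counted, because SLC2A5 stood on 2 IDs (ENSBTAG00000007302 and ENSBTAG00000034323). SLC2A12 was not analysed here.

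RNA was sequenced from bovine endometrial cells kept in a microfluidic device, with epithelial cells in the upper chamber and stromal enriched cells on the underside of a porous membrane in the lower chamber. Both kinds of cell were primary cells from uteri of nonpregnant cows early in the luteal phase, separated by straining and by how fast they plated. In the glucose experiment, medium made up with 5 mM or 50 mM glucose flowed through the device for 72 h. In the insulin experiment, all groups had 5 mM glucose and received vehicle (acetic acid in phosphate-buffered saline), 1 ng/mL or 10 ng/mL insulin for the same time. Each of the 10 groups of cell type and condition held 3 replicates, for 12 glucose and 18 insulin libraries. The labels number the replicates but do not say which animals gave the cells, so p-values measure the spread between these samples. The labels give no group with another solute at the osmolality of 50 mM glucose.

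Glucose enters cells down its gradient through the GLUT family, encoded by the SLC2A genes, or against its gradient with sodium through SGLT1, the product of SLC5A1. In the endometrium, the epithelium passes glucose from the blood into the uterine fluid that feeds the embryo before it implants, and the stroma takes up glucose as it prepares for pregnancy. GLUT1 (SLC2A1) carries basal uptake in most cells, GLUT3 (SLC2A3) has a high affinity for glucose, GLUT4 (SLC2A4) moves to the cell surface in response to insulin, and GLUT5 (SLC2A5) carries fructose.

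Library totals were 13493503 to 16647701 reads in the glucose experiment and 8826470 to 13214728 reads in the insulin experiment. Levels are given as counts per 1000000 reads (CPM), scaled with the TMM method within each experiment. A count of 0 allows up to 3 reads, or 0.18 to 0.222 CPM in a glucose library and 0.227 to 0.34 CPM in an insulin library, for counting error only. Since longer transcripts collect more reads and transcript lengths were not used here, levels of different genes were not ranked. The libraries are bulk RNA, so fewer cells of a type and less RNA per cell cannot be told apart. A difference was called when edgeR, fitted by quasi-likelihood with the replicate number as a block, gave a Benjamini-Hochberg adjusted p below 0.05 over all genes tested together with a log2 fold change above 0.1 or below -0.1.

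The labelled cell types were checked with 29 epithelial and 28 stromal marker gene IDs. The summed stromal markers reached 25988 to 104735 CPM in stromal glucose libraries against 2185 to 8309 CPM in epithelial ones, and 61204 to 102681 CPM against 1391 to 5216 CPM in the insulin experiment. The summed epithelial markers were 9028 to 19242 CPM in epithelial glucose libraries and 9716 to 11809 CPM in epithelial insulin libraries. In stromal cells they were 44.5 to 496 CPM with insulin or vehicle and 120 to 901 CPM at 5 mM glucose, but 1243 to 6541 CPM at 50 mM glucose. The 3 stromal libraries at 50 mM had all 29 epithelial markers detected, and those at 5 mM had 29, 18 and 26 in replicates 1, 2 and 3, with EPCAM and ESRP1 at 0 in the last 2. Taken relative to the epithelial library of the same number, the median epithelial marker in stromal cells stood at 9.18%, 0.025% and 0.0905% at 5 mM and at 19.2%, 6.35% and 64.1% at 50 mM in replicates 1, 2 and 3. Among the stromal insulin libraries this share was highest in vehicle replicate 2, at 3.91%, and in replicate 1 at 10 ng/mL, at 3.60%. Leukocyte markers (4 gene IDs) summed to 155 to 435 CPM in epithelial libraries. They summed to 3.21 to 173 CPM in stromal libraries, where the highest was again replicate 3 at 50 mM. Endothelial markers (5 gene IDs) summed to 2.79 to 78.1 CPM over all libraries, and smooth muscle and pericyte markers (6 gene IDs) to 9.39 to 347 CPM in the epithelial libraries and to 530 to 4277 CPM in the stromal libraries. Among the epithelial libraries, replicate 2 at 5 mM glucose stood apart, with 19242 CPM of epithelial markers against 10283 and 9028 CPM in replicates 1 and 3. These libraries bear on several results below, so values or counts of calls without the replicate concerned are given for part of them.

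SLC2A1 (ENSBTAG00000009617), the basal transporter, was mainly an epithelial transcript. In epithelial cells it stood at 582, 1028 and 421 CPM at 5 mM glucose and at 628, 793 and 523 CPM at 50 mM in replicates 1, 2 and 3. In stromal cells it stood at 294, 87.3 and 146 CPM at 5 mM and at 329, 159 and 492 CPM at 50 mM. The cell types did not overlap at either concentration, although stromal replicate 3 at 50 mM, with 492 CPM, came close to the epithelial library of its number, with 523 CPM. The log2 fold change of epithelial over stromal cells was 1.99 (standard error 0.602, adjusted p = 0.0684) at 5 mM, which passed the test without the replicate block (1.94, adjusted p = 0.0415). At 50 mM it was 1.09 (standard error 0.446, adjusted p = 0.146), and leaving out replicate 3 gave 1.60 with an adjusted p of 0.0454.

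With vehicle or insulin, SLC2A1 was further apart between the cell types. Epithelial libraries held 800, 695 and 699 CPM with vehicle, 712, 805 and 708 CPM at 1 ng/mL and 771, 728 and 668 CPM at 10 ng/mL. Stromal libraries held 21.0, 50.7 and 34.6 CPM with vehicle, 21.3, 20.0 and 23.8 CPM at 1 ng/mL and 46.5, 15.3 and 26.2 CPM at 10 ng/mL. Every epithelial library was thus above every stromal one. SLC2A1 was 21.5-fold higher in epithelial cells with vehicle (log2 fold change 4.42, standard error 0.348, adjusted p = 0.00139), 33.8-fold higher at 1 ng/mL (5.08, standard error 0.156, adjusted p = 3.25e-05) and 26.5-fold higher at 10 ng/mL (4.73, standard error 0.360, adjusted p = 0.00156). The stromal level of SLC2A1 was 2.10% to 7.30% of the epithelial level of its number in the insulin experiment and 8.49% to 94.0% in the glucose experiment. The 2 experiments were normalized apart and differ in their cultures, so the gap between them was not tested.

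SLC2A3 (ENSBTAG00000004556), the transporter of high affinity, was a stromal transcript in the glucose experiment. Epithelial cells had 283, 86.0 and 507 CPM at 5 mM and 284, 187 and 603 CPM at 50 mM, and stromal cells had 2372, 751 and 3194 CPM at 5 mM and 1984, 694 and 1655 CPM at 50 mM. Replicate 2 was the lowest of the 3 in each of these 4 groups, and the cell types did not overlap at either concentration. SLC2A3 was 7.75-fold lower in epithelial cells at 5 mM (log2 fold change -2.95, standard error 0.369, adjusted p = 0.00633). At 50 mM the log2 fold change was -2.06 (standard error 0.328, adjusted p = 0.0168). This call was lost without the replicate block (-2.02, adjusted p = 0.0793) and without replicate 1 (-1.66, adjusted p = 0.112). The fit without replicate 1 called 0 of 14019 genes tested.

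With vehicle or insulin the cell types overlapped for SLC2A3. Epithelial cells had 1429, 503 and 406 CPM with vehicle, 1192, 786 and 299 CPM at 1 ng/mL and 1356, 601 and 348 CPM at 10 ng/mL. Stromal cells had 576, 871 and 1194 CPM with vehicle, 867, 1186 and 957 CPM at 1 ng/mL and 648, 950 and 966 CPM at 10 ng/mL. In replicate 1 the epithelial library was the higher of its pair in all 3 conditions, with stromal levels at 40.3% to 72.8% of it, whereas in replicates 2 and 3 the stromal library was the higher, at 151% to 320% of the epithelial level. The log2 fold changes were -0.40 (standard error 0.617, adjusted p = 0.606) with vehicle, -0.62 (standard error 0.406, adjusted p = 0.237) at 1 ng/mL and -0.40 (standard error 0.533, adjusted p = 0.556) at 10 ng/mL. Without replicate 1 they were called with vehicle (-1.21, adjusted p = 0.0459) and at 10 ng/mL (-1.10, adjusted p = 0.0468), and without replicate 3 they were above 0 in those conditions (0.27 and 0.18).

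The group means of SLC2A1 and SLC2A3 stood in opposite orders in the glucose experiment. For SLC2A1 the order was epithelial 5 mM (677 ± 315 CPM, SD, n = 3), epithelial 50 mM (648 ± 136), stromal 50 mM (326 ± 167) and stromal 5 mM (176 ± 107). For SLC2A3 it was stromal 5 mM (2106 ± 1243 CPM, SD, n = 3), stromal 50 mM (1445 ± 670), epithelial 50 mM (358 ± 217) and epithelial 5 mM (292 ± 211). Neighbors of the same cell type lay within the larger of their SDs, and the epithelial and stromal neighbors of each order lay further apart than that. On the log2 scale the 2 genes had a Pearson correlation of -0.95 over the 6 epithelial and 0.46 over the 6 stromal glucose libraries, and of 0.72 and -0.17 over the 9 epithelial and 9 stromal insulin libraries, which describes libraries that share replicate numbers.

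SLC2A4 (ENSBTAG00000009190), the insulin-responsive transporter, was at the edge of detection in every group. Reads per epithelial library were 3, 5 and 9 at 5 mM glucose, 7, 3 and 18 at 50 mM, 8, 5 and 6 with vehicle, 7, 1 and 9 at 1 ng/mL insulin and 4, 0 and 4 at 10 ng/mL. Stromal glucose libraries held 2, 3 and 13 reads at 5 mM and 9, 4 and 13 reads at 50 mM. Of the 9 stromal insulin libraries, 7 had no read, and the other 2 had 1 read at 1 ng/mL and 2 reads at 10 ng/mL. The gene did not pass the filter on low counts in any comparison of 2 groups. Summed over the libraries of a group, SLC2A4 had 17 epithelial and 18 stromal reads at 5 mM glucose (means of 0.365 and 0.393 CPM). At 50 mM it had 28 and 26 reads (0.566 and 0.591 CPM), so it was not higher in epithelial cells in the glucose experiment. With vehicle SLC2A4 was 5.85-fold higher in epithelial than in stromal cells when the stromal count was taken as 3 reads over the group (19 reads against 0). At 1 ng/mL the ratio was 17.7, with an exact 95% counting interval of 2.77 to 739 that rests on 1 stromal read, and at 10 ng/mL it was 4.87 with an interval of 0.971 to 47.0. The 5.85-fold value allows for counting error in the stromal reads alone, and the intervals for that of both counts. Neither covers the spread between replicates.

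SLC5A1 (ENSBTAG00000012851), the gene of the sodium-coupled transporter SGLT1, had 0 to 6 reads in each of the 30 libraries and was tested in no comparison. The epithelial glucose libraries held 13 reads in all and the stromal ones 7. The epithelial insulin libraries held 5, all in replicate 1, and the 9 stromal insulin libraries held none, which allows up to 0.227 to 0.325 CPM in each. A difference between groups was not detectable at this depth.

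SLC2A5, the fructose transporter, was detected mainly in epithelial cells, on both of its gene IDs, with the most stromal reads at 50 mM glucose. On ENSBTAG00000007302, epithelial cells had 37.0, 35.9 and 54.7 CPM at 5 mM and 38.4, 62.8 and 58.2 CPM at 50 mM. Stromal cells had 2.73, 0 and 0.191 CPM at 5 mM (38, 0 and 3 reads) and 6.59, 2.25 and 27.2 CPM at 50 mM (92, 31 and 421 reads). No stromal library reached the lowest epithelial one. The log2 fold change was 6.46 (standard error 1.26, adjusted p = 0.0180) at 5 mM and 2.67 (standard error 0.711, adjusted p = 0.0579) at 50 mM, where leaving out replicate 3 gave 3.54 with an adjusted p of 0.0158. ENSBTAG00000034323 had 5.30 to 7.72 CPM in epithelial glucose libraries and 0 to 3.68 CPM in stromal ones, with log2 fold changes of 6.21 (standard error 1.10, adjusted p = 0.0139) at 5 mM and 2.26 (standard error 0.615, adjusted p = 0.0600) at 50 mM.

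With vehicle or insulin, SLC2A5 (ENSBTAG00000007302) had epithelial levels of 28.1, 79.3 and 38.8 CPM with vehicle, 26.1, 75.0 and 34.7 CPM at 1 ng/mL and 27.9, 72.8 and 39.2 CPM at 10 ng/mL. Stromal libraries held 1, 16 and 0 reads with vehicle, no read at 1 ng/mL and 13, 0 and 0 reads at 10 ng/mL. The log2 fold change was 6.59 (adjusted p = 0.00146) with vehicle and 6.82 (adjusted p = 0.00413) at 10 ng/mL, and at 1 ng/mL the gene was at least 518-fold higher in epithelial cells (1493 reads against 0, taken as 3 over the group). ENSBTAG00000034323 was called in all 3 conditions too, with no stromal read with vehicle or at 1 ng/mL (at least 62.5-fold and 58.6-fold higher in epithelial cells) and 2 stromal reads at 10 ng/mL (ratio 92.5, exact 95% counting interval 25.2 to 770). The reads of the second ID were 8.40% to 21.5% of those of the first over the 15 epithelial libraries, with a median of 12.5%. The authors kept uniquely mapped reads alone, so a read that matched both IDs was left out, and the separate levels are uncertain.

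The stromal level of SLC2A5 moved with the epithelial marker share, and that of SLC2A1 did so in part. The 6 stromal libraries with the most reads on ENSBTAG00000007302 (421, 92, 38, 31, 16 and 13) were, in that order, the 6 with the highest median marker share, namely replicates 3 and 1 at 50 mM, replicate 1 at 5 mM, replicate 2 at 50 mM, vehicle replicate 2 and replicate 1 at 10 ng/mL insulin. The other 9 held at most 3 reads. In the 3 stromal libraries at 50 mM, SLC2A5 stood at 17.2%, 3.57% and 46.7% of the epithelial level, beside 19.2%, 6.35% and 64.1% for the median epithelial marker. SLC2A1 stood at 52.4%, 20.0% and 94.0% in the same libraries. In stromal replicate 2 at 5 mM, where the median marker stood at 0.025% and the summed markers at 2.15% of the epithelial level, SLC2A5 had no read and SLC2A1 stood at 8.49%. In replicate 3 at 5 mM, with the median marker at 0.0905%, SLC2A1 stood at 34.6%, above the 20.0% of replicate 2 at 50 mM, whose median marker stood at 6.35%. The part of the markers' cells in these levels was not tested.

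**Figure D1:**
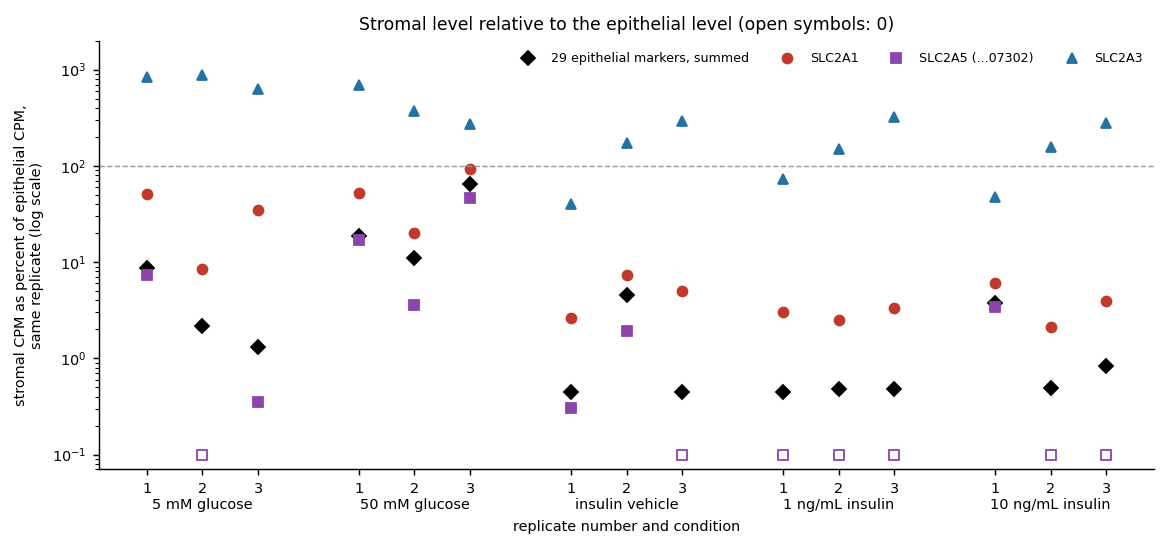
Stromal CPM as a percent of the epithelial CPM of the same replicate number (log scale) in the 15 pairs of libraries, for the 29 epithelial markers summed (diamonds), SLC2A1 (circles), SLC2A5 on ENSBTAG00000007302 (squares) and SLC2A3 (triangles), with the dashed line at equal levels and open symbols at 0. This SLC2A5 ID lay below the markers in each pair, SLC2A1 lay above them in each pair, and SLC2A3 lay above the line in all pairs but those of replicate 1 in the insulin experiment.

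SLC2A10 (ENSBTAG00000002942), which encodes the intracellular GLUT10, was a stromal transcript in every condition. Epithelial cells had 3.37, 2.55 and 2.42 CPM at 5 mM and 5.90, 6.0 and 2.93 CPM at 50 mM, and stromal cells had 23.0, 38.0 and 29.4 CPM at 5 mM and 33.0, 37.7 and 10.7 CPM at 50 mM. Over the insulin libraries the epithelial level was 2.54 to 5.90 CPM and the stromal level 38.8 to 50.2 CPM, with 9 libraries of each cell type. No stromal library reached down to an epithelial one in either experiment. The log2 fold change of epithelial over stromal cells was -3.42 (standard error 0.409, adjusted p = 0.00576) at 5 mM, -2.36 (standard error 0.237, adjusted p = 0.00416) at 50 mM, -3.62 (adjusted p = 0.000914) with vehicle, -3.47 (adjusted p = 0.000311) at 1 ng/mL and -3.47 (adjusted p = 0.00125) at 10 ng/mL. It was called in all 5 conditions, and the call at 50 mM was lost without replicate 1 (-2.26, adjusted p = 0.0789). In that fit 0 of 14019 genes tested were called. The lowest stromal value, 10.7 CPM, was that of replicate 3 at 50 mM, the library with the highest epithelial marker share.

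SLC2A13 (ENSBTAG00000043962) encodes HMIT, which carries myo-inositol with protons rather than glucose. Epithelial cells had 19.4, 21.2 and 16.3 CPM at 5 mM and 21.4, 25.3 and 15.5 CPM at 50 mM, and stromal cells had 43.2, 40.1 and 32.8 CPM at 5 mM and 50.2, 39.9 and 25.7 CPM at 50 mM. With vehicle the levels were 26.1, 26.9 and 21.0 CPM in epithelial and 41.0, 61.5 and 59.5 CPM in stromal cells. The epithelial and stromal libraries of a condition did not overlap in any of the 5 conditions. The log2 fold change was -1.03 (standard error 0.308, adjusted p = 0.0649) at 5 mM, which was called without the replicate block (-1.03, adjusted p = 0.0353). It was -0.88 (standard error 0.195, adjusted p = 0.0386) at 50 mM, a call lost without the block (-0.92, adjusted p = 0.111) and without replicate 1 (-0.68, adjusted p = 0.245), where 0 of 14019 genes tested were called. SLC2A13 was called with vehicle (-1.14, adjusted p = 0.00823), at 1 ng/mL (-1.26, adjusted p = 0.00236) and at 10 ng/mL (-1.22, adjusted p = 0.00327).

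SLC2A6 (ENSBTAG00000001824) and SLC2A8 (ENSBTAG00000006957), whose products sit largely on lysosomes and other inner membranes, differed less between the cell types. SLC2A6 had 49.9, 85.6 and 18.1 CPM in epithelial cells at 5 mM, 48.3, 41.2 and 23.0 CPM at 50 mM, and 16.9 to 25.1 CPM in the 6 stromal glucose libraries. With vehicle or insulin its range was 16.2 to 28.8 CPM in epithelial cells and 16.8 to 19.9 CPM in stromal cells. The log2 fold changes ran from 0.17 (10 ng/mL) to 1.02 (5 mM), all above 0. None was called in the separate edgeR fits with TMM scaling, the lowest adjusted p being 0.0502 with vehicle, where the size factors of DESeq2 in the same test gave a call (0.37, adjusted p = 0.0449). At 50 mM SLC2A6 was called without replicate 3 (0.89, adjusted p = 0.0207). With all libraries of an experiment in 1 fit it was called at 5 mM (1.10, adjusted p = 0.0339), with vehicle (0.34, adjusted p = 0.0136) and at 1 ng/mL (0.36, adjusted p = 0.00987). SLC2A8 had 8.02 to 14.1 CPM in epithelial glucose libraries and 4.64 to 7.24 CPM in stromal ones, with log2 fold changes of 0.96 (adjusted p = 0.125) at 5 mM and 0.61 (adjusted p = 0.130) at 50 mM. Its epithelial and stromal glucose libraries did not overlap. With vehicle or insulin, SLC2A8 ranged from 4.81 to 10.8 CPM in epithelial cells and from 6.63 to 9.68 CPM in stromal cells, the ranges overlapped, and the log2 fold changes were -0.22, -0.05 and -0.14 with vehicle, 1 ng/mL and 10 ng/mL.

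Counted over the 8 gene IDs of the set that passed the filter on low counts, 4 were called between the cell types at 5 mM glucose (SLC2A5 on both IDs higher in epithelial cells, SLC2A3 and SLC2A10 lower), where 21.1% of all genes tested were called (10.5% higher and 10.6% lower). At 50 mM it was 3 of 8 (SLC2A3, SLC2A10 and SLC2A13, all lower) beside 17.3% of all genes (6.39% higher and 10.9% lower). With vehicle, 1 ng/mL and 10 ng/mL it was 5 of 8 each (SLC2A1 and SLC2A5 on both IDs higher, SLC2A10 and SLC2A13 lower) beside 55.2%, 58.9% and 54.4% of all genes (27.8%, 29.6% and 27.1% higher, and 27.3%, 29.3% and 27.3% lower). The groups did not overlap for 7, 7, 6, 5 and 5 of the 8 IDs in these conditions, against 42.5%, 35.1%, 66.9%, 67.8% and 67.3% of all genes tested. The shares of the set in the insulin experiment were thus close to those of all genes. The median log2 fold change of the 8 IDs was 0.99, 0.65, 0.06, 0.16 and 0.01, and that of all genes lay between -0.01 and 0.03. Leaving out a replicate at 50 mM gave 0 of 9 IDs without replicate 1, 5 of 9 without replicate 2 and 7 of 8 without replicate 3. All genes called in these fits were 0 of 14019, 2029 of 14055 and 3897 of 14010. At 5 mM, 5 of 8 IDs were called without replicate 1, 6 of 8 without replicate 2 and 5 of 8 without replicate 3. All genes called there were 3219 of 14165, 3362 of 14165 and 2262 of 13963. The epithelial markers themselves were called higher in epithelial cells in 27 of 29 cases at 5 mM, 4 of 29 at 50 mM and 29 of 29 in each insulin condition.

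**Figure D2:**
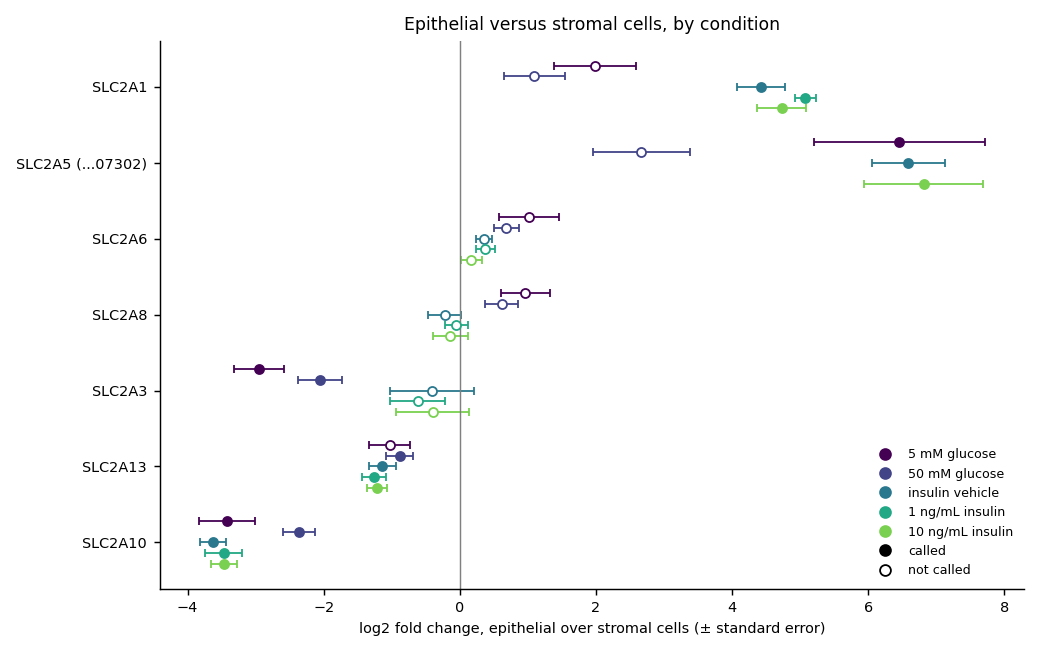
Log2 fold change of epithelial over stromal cells (horizontal axis, with standard errors) for 7 gene IDs in the 5 conditions, shown in colors, with filled points where the difference was called. SLC2A1 and SLC2A5 lie to the right and SLC2A10 and SLC2A13 to the left in each condition, while SLC2A3 was called in the 2 glucose conditions (-2.95 and -2.06), and SLC2A5 at 1 ng/mL insulin, with no stromal read, is left out.

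The transporters were then compared between 50 mM and 5 mM glucose, which asks whether the cells alter their transporter transcripts when the sugar supply is changed. In epithelial cells 0 of 8 IDs were called by edgeR, as were 0% of all genes. None had an unadjusted p under 0.05, beside 1.55% of all genes, and DESeq2 called 0. Without replicate 2, whose library at 5 mM stood apart, 0 were called, 2 had an unadjusted p under 0.05, SLC2A1 lay at 0.21 (adjusted p = 0.348) and SLC2A3 at 0.12 (adjusted p = 0.621), while 221 of all genes were called. SLC2A1 was higher at 50 mM in 2 of 3 replicates, with a log2 fold change of 0.00 (normal-theory interval from the standard error, -0.47 to 0.47). Such an interval is narrower than the few degrees of freedom of the test allow. SLC2A10 was higher in 3 of 3 (0.76, standard error 0.335, adjusted p = 0.804), as were SLC2A3 (0.44, standard error 0.284, adjusted p = 0.804) and SLC2A5 on ENSBTAG00000007302 (0.30, standard error 0.254, adjusted p = 0.804). The remaining IDs had -0.27 (SLC2A6), -0.17 (SLC2A5 on ENSBTAG00000034323), -0.15 (SLC2A8) and 0.10 (SLC2A13). In the same comparison 26 of 26 stromal markers tested were above 0, with a median of 0.70, and SLC2A3 and SLC2A10 are the 2 genes of the set that were several-fold higher in stromal cells. Whether stromal RNA in the epithelial libraries contributes was not tested.

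In stromal cells 0 of 7 IDs were called by edgeR between 50 mM and 5 mM, beside 0% of all genes. One ID had an unadjusted p under 0.05, beside 4.87% of all genes, and DESeq2 called 1, beside 1.3%, which in both cases was SLC2A5 on ENSBTAG00000007302 (3.93 in edgeR, standard error 1.42, adjusted p = 0.696, and 5.20 in DESeq2, adjusted p = 0.00435). SLC2A1 was higher at 50 mM in 3 of 3 replicates (0.91, standard error 0.350, adjusted p = 0.696, 0.48 to 1.30 on leaving out a replicate). SLC2A3 was lower in 3 of 3 (-0.45, standard error 0.217, adjusted p = 0.696). SLC2A10 lay at -0.31 with all replicates and at 0.22 without replicate 3. SLC2A6, SLC2A8 and SLC2A13 had 0.06, 0.19 and -0.06. Of the epithelial markers, 28 of 28 tested were above 0 in this comparison, with a median of 4.41, and of the stromal markers 1 of 28 was above 0, with a median of -0.51. The directions of SLC2A1, SLC2A5 and SLC2A3 are those of the marker lists of the cell type in which each was higher, and the part of the markers' cells was not tested.

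**Figure D3:**
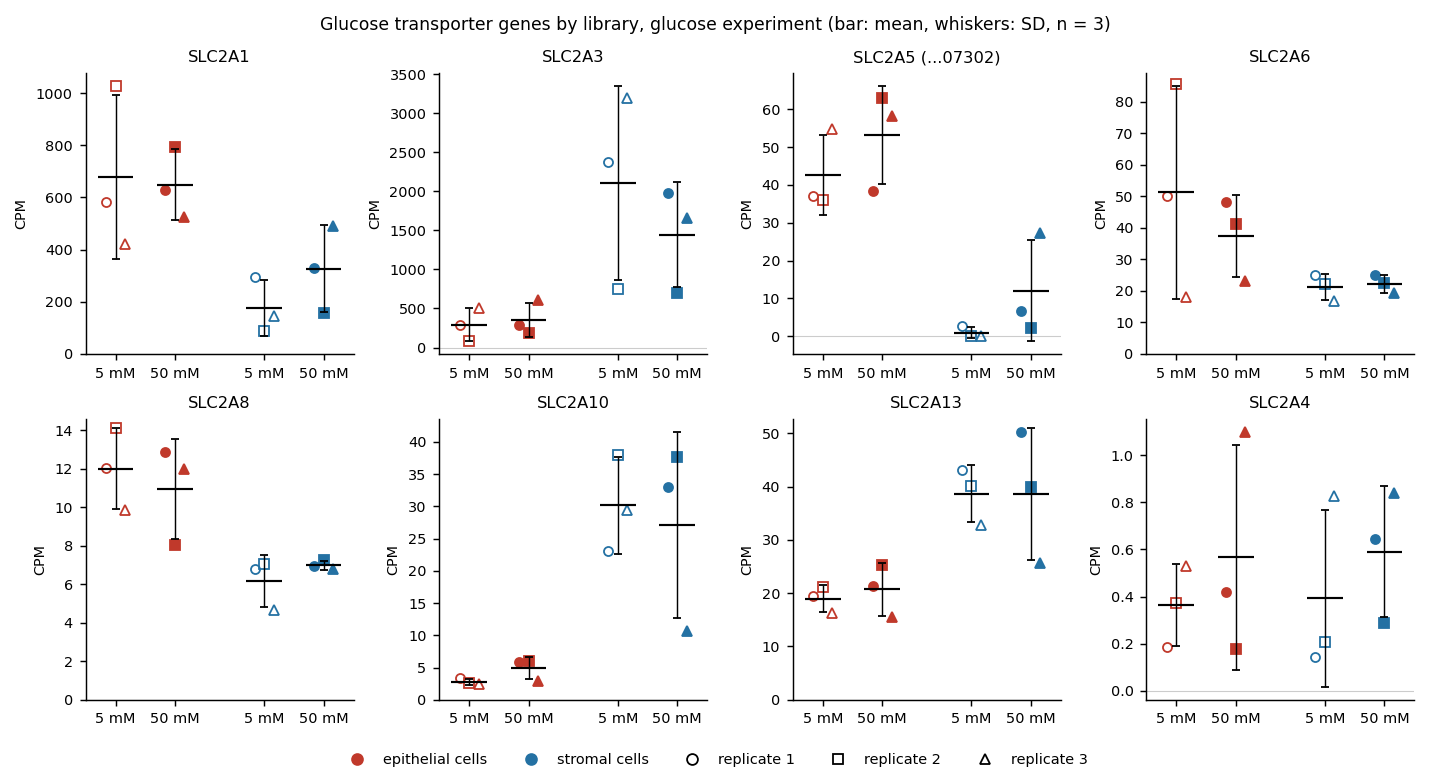
Levels in CPM in the 12 glucose libraries, by cell type (red, epithelial; blue, stromal) and glucose concentration (open, 5 mM; filled, 50 mM), with 1 symbol per replicate, bars at the mean and whiskers of 1 SD (n = 3). The 5 mM and 50 mM groups overlap in each panel, and stromal replicate 3 at 50 mM is the highest of its group for SLC2A1 and SLC2A5 and the lowest for SLC2A10 and SLC2A13.

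The glucose effect was compared between the cell types by an interaction term in a fit of the 12 libraries. For SLC2A3 it was 0.89 (standard error 0.406, unadjusted p = 0.0623 and adjusted p = 0.687 from edgeR), with all 3 stromal pairs down and all 3 epithelial pairs up, that of replicate 1 only from 283 to 284 CPM. It was 1.07 for SLC2A10 (standard error 0.560), -0.91 for SLC2A1 (standard error 0.448), -3.53 for SLC2A5 on ENSBTAG00000007302 (standard error 1.29) and -4.05 on ENSBTAG00000034323 (standard error 1.08). By edgeR 0 of 9 IDs were called, beside 0% of all genes, with 2 at an unadjusted p under 0.05, both on SLC2A5, beside 7.53%, and DESeq2 called 1, which was ENSBTAG00000034323 (-4.13, adjusted p = 0.0196), beside 1.71%. In the same comparison 0 of 29 epithelial markers were above 0, with a median of -4.68, and 28 of 28 stromal markers were, with a median of 1.28, and their cells' part in these values was not tested.

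Insulin was compared at 1 ng/mL and at 10 ng/mL with vehicle and between the doses. In epithelial cells 0 of 8 IDs were called by edgeR in each comparison, beside 0%, 0.124% and 0% of all genes, and DESeq2 called 0 in each. In each of the 3, 1 ID had an unadjusted p under 0.05, beside 2.95%, 6.96% and 4.44% of all genes. At 1 ng/mL it was SLC2A13 (-0.24, standard error 0.083, adjusted p = 1.0 from edgeR), with 21.3, 23.1 and 18.4 CPM against 26.1, 26.9 and 21.0 CPM with vehicle. At 10 ng/mL it was SLC2A6, which lay at 16.2, 21.2 and 25.2 CPM against 20.4, 23.8 and 28.4 CPM with vehicle (-0.21, standard error 0.086, adjusted p = 0.647) and 18.6, 26.1 and 28.8 CPM at 1 ng/mL (-0.23, standard error 0.084, adjusted p = 0.983). Each of these differences had the same direction in 3 of 3 replicates, while the groups overlapped. Normal-theory intervals from the standard error, again narrower than the test allows, were -0.08 to 0.12 at 1 ng/mL and -0.09 to 0.06 at 10 ng/mL for SLC2A1. They were -0.23 to 0.20 and -0.11 to 0.09 for SLC2A3, and -0.24 to 0.01 and -0.18 to 0.08 for SLC2A5 on ENSBTAG00000007302. Without replicate 2, SLC2A3 was called lower at 1 ng/mL (-0.34, adjusted p = 3.98e-07), and without replicates 1 or 3 it was above 0 (0.11 and 0.18). The fit without replicate 2 rests on fewer libraries and called 33 of 13183 genes, where the fit with all replicates called 0 of 12966.

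In stromal cells 0 of 6 IDs were called by edgeR in each insulin comparison, beside 0.0157%, 0% and 0.0313% of all genes, and DESeq2 called 0 in each. SLC2A1 had the largest difference, with 21.3, 20.0 and 23.8 CPM at 1 ng/mL against 21.0, 50.7 and 34.6 CPM with vehicle. Its log2 fold change was -0.66 (standard error 0.175, unadjusted p = 0.00233 and adjusted p = 0.630 from edgeR), and it was lower in 2 of 3 replicates. It was -0.28 (adjusted p = 0.583) without replicate 2, whose vehicle library had the highest epithelial marker share of its group, and -0.95 (adjusted p = 0.0553) without replicate 1. Without replicate 3 SLC2A1 was called (-0.72, adjusted p = 0.00444), as was SLC2A3 (0.52, adjusted p = 1.38e-05), beside 103 of 12816 genes. That fit rests on fewer libraries. SLC2A1 was also called without the filter on low counts (-0.66, adjusted p = 4.65e-05), beside 156 of 18890 genes. With all replicates and the filter, 2 of 12711 genes were called. At 10 ng/mL against vehicle SLC2A1 lay at -0.30 (standard error 0.421, higher in 1 of 3) and between the doses at 0.36 (standard error 0.206, higher in 2 of 3). SLC2A3 lay at 0.24 at 1 ng/mL (standard error 0.127, adjusted p = 0.917), at -0.01 at 10 ng/mL and at -0.24 between the doses (standard error 0.078, unadjusted p = 0.00987 and adjusted p = 1.0 from edgeR, lower in 2 of 3). The paper lists SLC2A3 among the transcripts altered in stromal cells between these doses. Between the doses edgeR called 1 ID lower without the filter on low counts (adjusted p = 0.0124), beside 165 of 18937 genes. It also called 1 ID lower without replicate 3 (adjusted p = 0.00578), beside 74 of 12806 genes. The number of IDs with an unadjusted p under 0.05 was 1, 0 and 1 in the 3 comparisons, beside 5.16%, 2.79% and 3.91% of all genes. SLC2A6, SLC2A8, SLC2A10 and SLC2A13 lay between -0.11 and 0.20 in all of them. The 2 comparisons with vehicle share the vehicle libraries. In none of the 8 comparisons of glucose or insulin did a member have groups without overlap, whereas 5.24% and 6.76% of all genes did with glucose in epithelial and stromal cells. The shares of all genes were 2.51%, 3.18% and 3.13% in epithelial cells and 4.16%, 3.36% and 4.06% in stromal cells for 1 ng/mL against vehicle, 10 ng/mL against vehicle and 10 against 1 ng/mL.

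**Figure D4:**
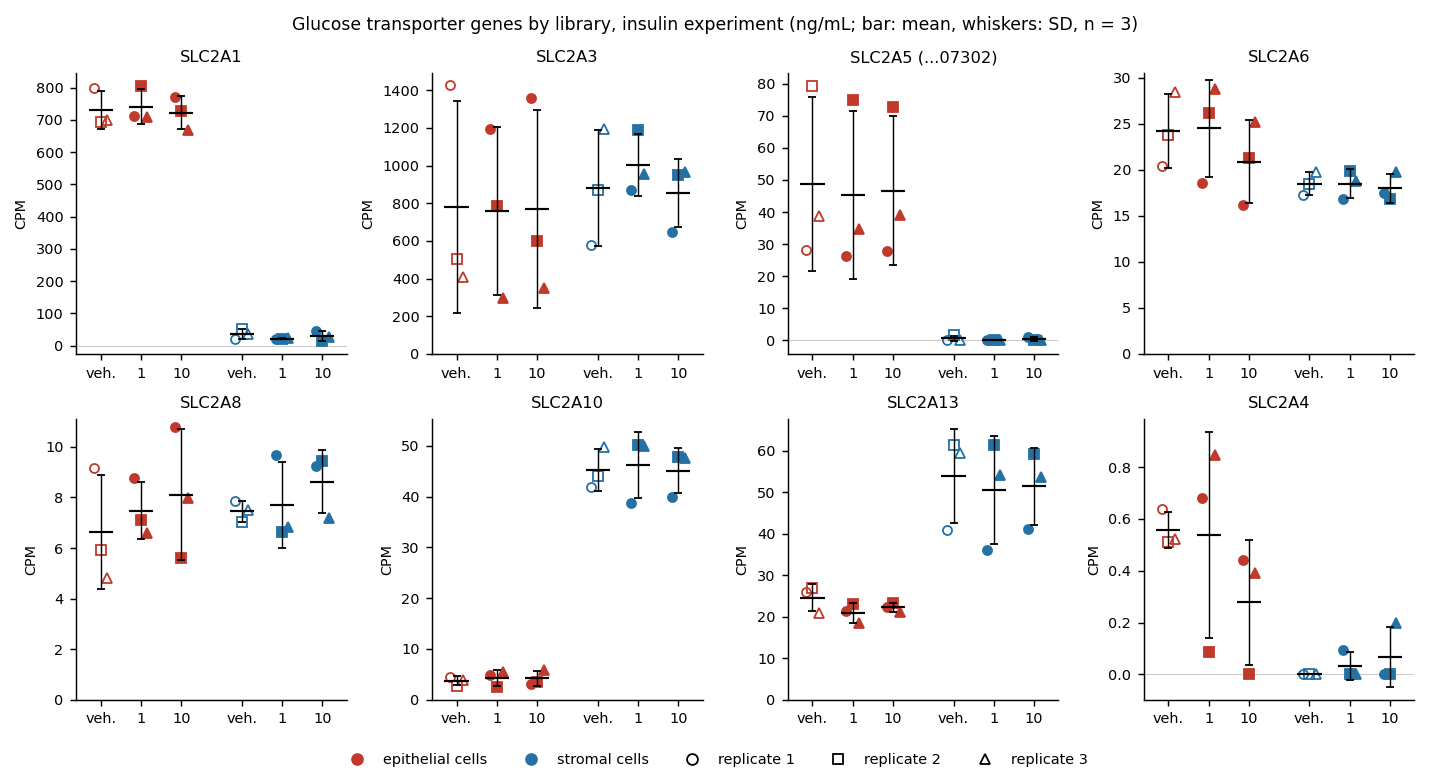
Levels in CPM in the 18 insulin libraries, by cell type (red, epithelial; blue, stromal) and insulin concentration (vehicle, 1 and 10 ng/mL), with 1 symbol per replicate, bars at the mean and whiskers of 1 SD (n = 3). For SLC2A3 and SLC2A5 in epithelial cells the replicates keep their order from vehicle to 10 ng/mL, with replicate 1 highest for SLC2A3 (1192 to 1429 CPM) and replicate 2 for SLC2A5 (72.8 to 79.3 CPM).

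**Figure D5:**
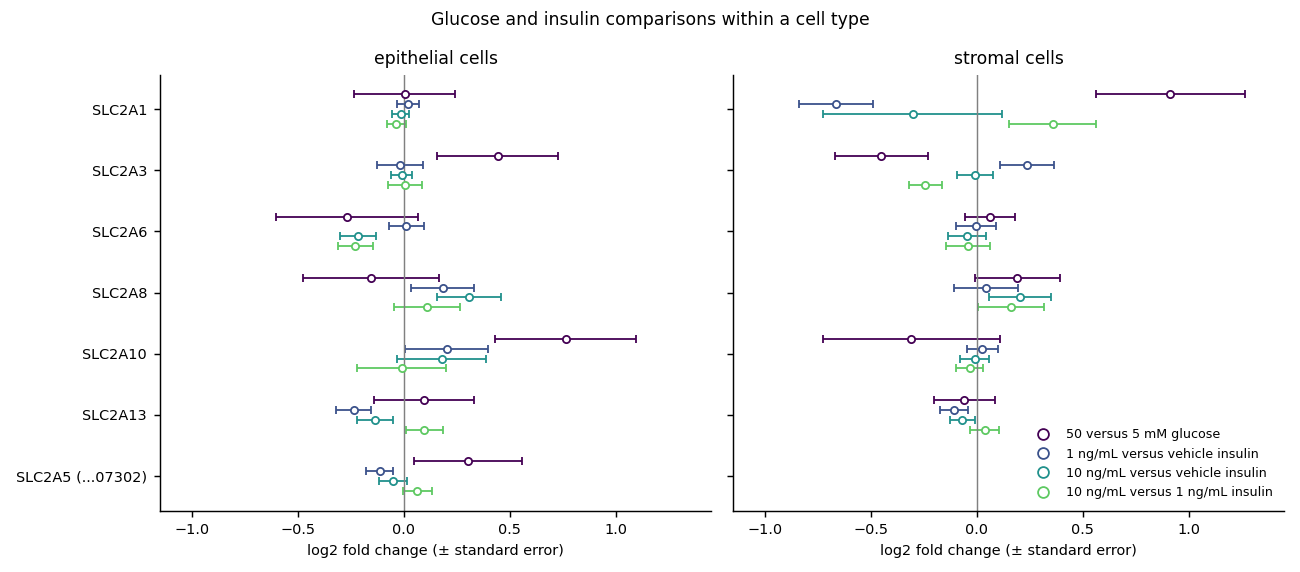
Log2 fold change (horizontal axis, with standard errors) for glucose (50 over 5 mM) and insulin (1 and 10 ng/mL over vehicle, 10 over 1 ng/mL) in epithelial cells (left) and stromal cells (right). No difference was called, the epithelial insulin values lie within 0.31 of 0, and SLC2A5 is left out on the right, where its stromal reads were few.

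By the interaction term, the effect of 1 ng/mL insulin differed between the cell types for 1 of 8 IDs, SLC2A5 on ENSBTAG00000007302 (5.49, standard error 0.990, adjusted p = 0.0174), beside 0.658% of all genes. Unadjusted, 2 IDs had a p under 0.05, beside 6.78%. On ENSBTAG00000007302 the epithelial levels differed by a log2 fold change of -0.11, and the stromal reads were 1, 16 and 0 with vehicle and 0 in all 3 libraries at 1 ng/mL, and 16 of these 17 reads came from stromal vehicle replicate 2. The difference of effects was 2.10 (adjusted p = 0.886) without replicate 2, 5.93 (adjusted p = 0.0602) without replicate 1, 5.51 (adjusted p = 1.0) without the replicate block and 3.83 (adjusted p = 0.208) in DESeq2. In the same comparison 19 of 29 epithelial markers were called in the same direction. Between the doses the term for this ID was -4.69 (standard error 1.10, adjusted p = 0.0956), beside 21 of 29 epithelial markers called lower, and 0 of 8 IDs were called beside 0.754% of all genes (1 at an unadjusted p under 0.05, beside 6.83%, and DESeq2 0). At 10 ng/mL against vehicle 0 of 8 were called beside 0% of all genes (0 at an unadjusted p under 0.05, beside 4.05%, and DESeq2 0). SLC2A1 had 0.70 (standard error 0.209, unadjusted p = 0.00424 and adjusted p = 0.263 from edgeR) at 1 ng/mL, and was called without replicate 1 (1.08, adjusted p = 0.0469) and without the filter on low counts (0.68, adjusted p = 6.57e-09) but not without replicate 2 (0.21, adjusted p = 0.841). Over all genes, 68 of 14051 were called without replicate 1, 294 of 20366 without the filter and 3 of 14076 without replicate 2.

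For most transporters, more of the variation within a cell type lay between replicate numbers than between conditions. In epithelial insulin libraries, replicate numbers took 94.2% of the variation of log2 levels of SLC2A3 and 99.0% of that of SLC2A5 on ENSBTAG00000007302, against a median of 71.0% over all genes. In stromal insulin libraries they took 94.5% for SLC2A13 and 1.62% for SLC2A1, against a median of 58.7%. For stromal SLC2A1, 21.5% of the variation lay between conditions, against a median of 9.19% over all genes. In epithelial glucose libraries, SLC2A10 had 33.9% between replicate numbers and 51.9% between conditions, where the medians over all genes were 57.6% and 11.9%. SLC2A5 on ENSBTAG00000007302 had 22.2% and 55.6% in stromal glucose libraries, where the medians were 64.9% and 9.70%. SLC2A8 had 13.9% between replicate numbers and 7.22% between conditions in epithelial glucose libraries.

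Other genes of sugar handling were read from 4 lists. None of their genes was called in any comparison of glucose or insulin within a cell type, where 0% to 0.124% of all genes were called. Between the cell types, 21.1%, 17.3%, 55.2%, 58.9% and 54.4% of all genes tested were called at 5 mM, 50 mM, vehicle, 1 ng/mL and 10 ng/mL. Of 11 other sugar transporter genes found, SLC37A1, an exchanger of glucose 6-phosphate, was higher in epithelial cells in all 5 conditions (log2 fold change 4.01, 2.04, 4.60, 4.81 and 4.50 at 5 mM, 50 mM, vehicle, 1 ng/mL and 10 ng/mL). SLC45A4 was called higher in 4 of them (0.93 to 2.16) and SLC50A1, a sugar exporter of the SWEET family, also in 4 (0.73 to 1.66). SLC37A2 was lower in epithelial cells at 50 mM (-1.30) and higher at 1 and 10 ng/mL (1.70 and 1.59), and SLC37A3 was higher with vehicle (0.55). Called higher and lower in epithelial cells were 2 and 0 of 9 tested at 5 mM, 2 and 1 of 8 at 50 mM, and 4, 5 and 5 against 0 of 7 in the insulin conditions. The median of the list was 0.39, -0.01, 0.85, 0.73 and 1.12. With glucose, SLC37A3 had the smallest p in both cell types (0.45 and 0.46, adjusted p = 0.804 and 0.696). With insulin the smallest p was that of SLC2A9 (0.35 and -0.27) or SLC45A4 (0.13) in epithelial cells and of SLC45A4 (-0.34 and 0.33) or SLC37A2 (-0.49) in stromal cells.

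The list of enzymes that trap glucose or reduce it to polyols had 15 genes, all tested between the cell types. Called higher and lower in epithelial cells were 1 and 1 at 5 mM and 8 and 1 in each insulin condition. None was called at 50 mM by edgeR, where PGM2 had the smallest p (0.67, adjusted p = 0.0571). Of all genes, 21.1%, 17.3%, 55.2%, 58.9% and 54.4% were called in the 5 conditions. HKDC1, a hexokinase domain protein, was the furthest apart, at 101 ± 36.4 CPM in epithelial and 1.93 ± 2.87 CPM in stromal cells (SD, n = 3) at 5 mM (6.78, adjusted p = 0.0110). With vehicle its log2 fold change was 6.20 and at 10 ng/mL 5.91, and at 1 ng/mL it had 2834 epithelial and 3 stromal reads. HK2, the inducible hexokinase, was called higher in epithelial cells with vehicle or insulin (2.55, 2.77 and 2.47), as was GYS1, the glycogen synthase of most tissues (2.64, 2.84 and 2.64). SORD, which oxidizes sorbitol to fructose, was lower in epithelial cells (-2.65, -2.34 and -2.13 with vehicle, 1 ng/mL and 10 ng/mL). HKDC1 also differed in its response to insulin by the interaction term, at 3.95 (adjusted p = 0.00434) for 1 ng/mL against vehicle and -3.92 (adjusted p = 0.00764) between the doses, with 48 stromal reads over 3 libraries with vehicle, 3 at 1 ng/mL and 59 at 10 ng/mL, beside 19 and 21 of 29 epithelial markers called in the same directions. It was the only gene of the 4 lists called by an interaction term. Of all genes, 0.658% were called for 1 ng/mL against vehicle and 0.754% between the doses. The smallest p of the other lists was that of SLC37A1 (-1.90), RAB10 (-0.40) and ATP1B2 (2.21) with glucose, of SLC45A4 (0.47), TXNIP (-0.37) and SGK1 (-0.18) at 1 ng/mL, of SLC5A2 (-1.37), TXNIP (-0.25) and SGK1 (-0.11) at 10 ng/mL, and of SLC45A4 (-0.34) and VAMP2 (0.38) between the doses. The median of the list between the cell types was 0.09, -0.11, 0.61, 0.69 and 0.69. With glucose the smallest p belonged to GBE1 in epithelial cells (0.47) and SORD in stromal cells (-0.79, lower in 3 of 3), and with insulin to GYS1 (0.12) and HKDC1 (-0.11 and -0.11) in epithelial cells and to GBE1 (0.07), GPI (-0.12) and HK2 (0.20) in stromal cells.

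The next list held 22 genes that move transporters to and from the cell surface or control their turnover. Called higher and lower in epithelial cells were 1 and 1 at 5 mM, 0 and 1 at 50 mM and 5 and 4 with vehicle. At 1 ng/mL they were 6 and 6, and at 10 ng/mL 5 and 4. Of all genes, 21.1%, 17.3%, 55.2%, 58.9% and 54.4% were called in these conditions. The list medians were -0.30, -0.08, 0.11, 0.06 and 0.03. SORT1, the sortilin of GLUT4 storage vesicles, was higher in epithelial cells at 5 mM and in the insulin conditions (3.56 to 3.80). RHOQ, the small GTPase TC10 of insulin-driven GLUT4 movement, was lower in all 5 conditions (-1.70 to -1.18). GIPC1, which binds the tail of GLUT1, was called higher in the 3 insulin conditions (0.91, 0.94 and 0.80), and SLC2A4RG, named for its regulation of SLC2A4, was lower with vehicle (-0.74). SNX27, of the retrieval of GLUT1 from endosomes, was lower at 10 ng/mL (-0.77). With insulin, TXNIP, which promotes the uptake of GLUT1 from the surface, had the smallest p of the list in epithelial cells at 1 ng/mL against vehicle (-0.38, standard error 0.081, adjusted p = 0.356, lower in 3 of 3) and between the doses (0.30, adjusted p = 0.964, higher in 3 of 3). In the other comparisons it was STXBP3 (0.68) and SNAP23 (0.34) with glucose in epithelial and stromal cells, TBC1D1 (-0.14) at 10 ng/mL in epithelial cells, and VAMP2 (0.20), TXNIP (0.16) and ARRDC4 (0.20) in stromal cells.

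Among 12 genes of the sodium gradient that drives SGLT1, 8 were tested between the cell types. Called higher and lower in epithelial cells were 0 and 2 with either glucose concentration, 2 and 4 with vehicle and at 1 ng/mL, and 1 and 4 at 10 ng/mL. Of all genes, 21.1%, 17.3%, 55.2%, 58.9% and 54.4% were called at 5 mM, 50 mM, vehicle, 1 ng/mL and 10 ng/mL. The list medians were -0.45, -0.31, -0.07, -0.22 and -0.14. FXYD1, a regulator of the sodium pump, was lower in epithelial cells in all 5 conditions (-4.26 to -2.52). ATP1B3, a pump subunit, was lower in the insulin conditions (-1.47 to -1.39), and NEDD4L, a ubiquitin ligase of sodium transporters, was higher there (0.80 to 0.87). Within a cell type the smallest p was that of ATP1B3 (0.49) and ATP1B2 (-1.30) with glucose, of FXYD5 (0.04) and ATP1B3 (-0.09 and -0.11) with insulin in epithelial cells, and of FXYD5 (0.18 and -0.13) and SGK1 (0.11) in stromal cells.

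The genes whose levels followed SLC2A1 and SLC2A3 most closely were found by the Pearson correlation of log2(CPM + 1), taken as deviations from the mean of each cell type, over the 18 insulin libraries and 13042 genes. For SLC2A1 they were PRKCZ, a kinase of apical polarity (r = 0.92), LLGL2, of basolateral polarity (0.90), PPL, a protein of cell junctions (0.90), WFDC2, a secreted epithelial protein (0.90), and SEMA4B (0.90). Over the 12 glucose libraries the same genes had 0.92, 0.89, 0.86, 0.86 and 0.73. For SLC2A3 they were ENSBTAG00000030416, an ID without a symbol (0.97), SPTY2D1 (0.96), SPATS2L (0.95), CABLES1 (0.95) and FAM126B (0.94), with 0.98, 0.79, 0.20, 0.02 and 0.73 over the glucose libraries. ENSBTAG00000030416 held 0.581% to 1.09% of the reads of SLC2A3 in each of the 30 libraries, so the 2 IDs kept nearly 1 ratio in both cell types, and whether they share sequence was not tested. With a pseudocount of 0.1 CPM in place of 1, 2 of the 5 genes named for SLC2A1 and all 5 for SLC2A3 stayed among the 5 closest. With deviations from each cell type and replicate number, 1 of the 5 genes named for SLC2A1 and 0 of the 5 for SLC2A3 stayed among the 5 closest. SLC2A1 ran only from 668 to 805 CPM in epithelial insulin libraries. Its 2 highest stromal insulin values, 50.7 and 46.5 CPM, were those of vehicle replicate 2 and replicate 1 at 10 ng/mL. Summed epithelial markers were 496 and 402 CPM in these libraries and 44.5 to 81.7 CPM in the other stromal insulin libraries. The part of the markers' cells in the correlations was not tested.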

How the data were processed

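Counts of reads per gene were taken from 2 deposited tables, 1 for the glucose and 1 for the insulin experiment (30 libraries of the RNA of epithelial or stromal cells). To make them, the authors sequenced stranded libraries as 75 bp single-end reads, ran FastQC, cutadapt and fastq_quality_filter, mapped the reads by Rsubread on the Ensembl release 96 assembly of the cow, kept unique matches and counted these per gene with featureCounts, without normalization (the submitters' processing notes also name SAMtools and DESeq2). From 13 deposited tables of the authors' own comparisons, which hold fold changes and p-values, only gene symbols were used. The authors' counts were analysed with edgeR 4.0.16 (limma 3.58.1) in R 4.3.3: TMM, filterByExpr, quasi-likelihood fit of the 2 groups compared with the replicate number as a block, since the study states a paired sample design, and Benjamini-Hochberg adjustment over all genes tested. The standard error is the log2 fold change divided by the root of its F statistic. Differences of an effect between cell types came from an interaction term. Same-numbered libraries deviated together, with a correlation over 0.1 for every pair, in 11 of 13 comparisons, all but those of the cell types at 5 mM glucose (lowest 0.0295) and 10 ng/mL insulin (0.0765). For glucose in stromal cells the lowest same-numbered correlation (0.216, replicate 3) was below the highest between different numbers (0.267). The same held for the cell types at 5 mM glucose (0.0295 against 0.0828). No pair of replicates agreed within sampling noise (chi-square per degree of freedom 16.3 to 317 over 30 pairs). The fits were tested on simulated data. Tables and plots were made with Python 3.11.15, pandas 2.3.3, numpy 2.4.6 and scipy 1.17.1.

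The members, marker lists and lists of related genes were chosen with earlier results of these data known. All members are named, and of each related list, per comparison, up to 4 called genes with the largest log2 fold change or, with none called, the gene with the smallest p, together with the 5 genes most like SLC2A1 and SLC2A3. Some list genes that this rule names are not reported here, though the counts and medians of their lists include them. Alternatives tried were no block, size factors of DESeq2 1.42.0, its Wald test, no filter on low counts and leaving out each replicate number. A fit of all libraries of an experiment together was added after seeing the data.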

Additional observations from a re-analysis of the deposited data

Results flagged for a closer look

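The effect of 1 ng/mL insulin against vehicle on SLC2A5 (ENSBTAG00000007302) differed between the cell types by the interaction term of edgeR, with a log2 difference of 5.49 (epithelial minus stromal, standard error 0.990, adjusted p = 0.0174). The epithelial reads were 353, 778 and 444 with vehicle and 269, 855 and 369 at 1 ng/mL, and the stromal reads were 1, 16 and 0 against 0, 0 and 0. The call was lost without replicate 2 (adjusted p = 0.886), without replicate 1 (0.0602), without the replicate block (1.0) and in DESeq2 (0.208), and 19 of 29 epithelial markers were called in the same direction. The glucose effect on SLC2A3 had a log2 difference of 0.89 (epithelial minus stromal, standard error 0.406, adjusted p = 0.687 from edgeR), which did not pass the test. It is listed because all 3 epithelial replicates were higher at 50 mM than at 5 mM and all 3 stromal replicates were lower, although epithelial replicate 1 had 284 against 283 CPM. In that comparison 28 of 28 stromal markers were also above 0, with a median of 1.28.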

How the results depend on the processing

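The number of transporter IDs called was recomputed under each alternative. In stromal cells it rose from 0 to 1 for glucose with DESeq2's Wald test. It rose from 0 to 1 without the filter on low counts for 1 ng/mL against vehicle and for 10 against 1 ng/mL. Over all genes 178 of 13644, 156 of 18890 and 165 of 18937 were called in these fits. For epithelial against stromal cells at 50 mM glucose the number of IDs moved from 3 of 8 to 6 of 8 with DESeq2 and to 5 of 10 without the filter. Over all genes the calls moved from 2397 of 13892 to 3529 of 13892 and 3171 of 20271. At 5 mM the number of IDs moved from 4 of 8 to 6 of 8 with DESeq2. It was 8 of 9 when all libraries of the experiment entered 1 fit, an alternative chosen after seeing the data. Over all genes these calls moved from 2944 of 13927 to 3864 of 13927 and 5527 of 14640. For the difference of effects between cell types, 1 ID was called with DESeq2 for glucose (0 with edgeR), beside 250 of 14640 genes. For 1 ng/mL against vehicle (1 with edgeR) the number was 0 with DESeq2, 2 without the filter and 0 in the fit of all libraries. Over all genes these fits called 27 of 13976, 294 of 20366 and 0 of 14195. Between the doses 2 IDs were called without the filter (0 with edgeR), beside 321 of 20304 genes. SLC2A1 in epithelial cells with glucose had -0.0013 with DESeq2's size factors and with its Wald test, SLC2A3 had 0.0021 without the filter in stromal cells at 10 ng/mL against vehicle, and -0.018 in the fit of all libraries in epithelial cells between the doses.

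Without the replicate block, 1 ID in place of 3 was called between the cell types at 50 mM, and 6 in place of 4 at 5 mM. Over all genes 1088 in place of 2397 and 3028 in place of 2944 were called. For the effect of 1 ng/mL against vehicle between cell types, 0 IDs were called without the block, beside 0 of 13976 genes. SLC2A1 in epithelial cells with glucose lay near 0 with the block (0.00) and without it (-0.078). So did SLC2A3 for the difference of the 10 ng/mL effect (-0.012, standard error 0.149, with the block and 0.027 without it).

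Leaving out 1 replicate number at a time gave 0 to 7 IDs between the cell types at 50 mM, 0 to 1 for glucose in stromal cells, 0 to 1 and 0 to 2 for 1 ng/mL against vehicle in epithelial and stromal cells, 0 to 1 for 10 against 1 ng/mL in stromal cells, 0 to 2 for the difference of glucose effects and 0 to 1 for that of 1 ng/mL, where the 1 was SLC2A1 without replicate 1 and SLC2A5 without replicate 3. Of all genes, 3897 of 14010 were called at 50 mM without replicate 3, and 50 of 13757 for stromal glucose without replicate 1. At 1 ng/mL they were 33 of 13183 in epithelial cells without replicate 2 and 103 of 12816 in stromal cells without replicate 3. Between the doses 74 of 12806 were called in stromal cells without replicate 3. For the differences of effects, 307 of 14728 were called with glucose without replicate 1. At 1 ng/mL they were 68 of 14051 and 158 of 14026 without replicates 1 and 3. The log2 fold change of SLC2A1 ran from -0.16 to 0.21 for glucose in epithelial cells, -0.068 to 0.11 for 1 ng/mL and -0.050 to 0.0077 for 10 ng/mL against vehicle and -0.11 to 0.020 between the doses in epithelial cells, -1.06 to 0.42 for 10 ng/mL against vehicle and -0.087 to 0.65 between the doses in stromal cells, and -0.49 to 1.06 for the difference of the 10 ng/mL effects. That of SLC2A3 ran from -0.34 to 0.18, -0.13 to 0.086 and -0.090 to 0.21 in the epithelial insulin comparisons, -0.093 to 0.14 for 10 ng/mL against vehicle in stromal cells, -1.21 to 0.27 and -1.10 to 0.18 between the cell types with vehicle and 10 ng/mL, and -0.48 to 0.058 and -0.076 to 0.11 for the differences of the 1 and 10 ng/mL effects. SLC2A8 between the cell types ran from -0.48 to 0.0078, -0.12 to 0.0049 and -0.33 to 0.15 with vehicle, 1 and 10 ng/mL, and SLC2A5 (ENSBTAG00000007302) from -5.34 to 0.056 for the difference between the doses. The cause of these shifts was not tested, beyond that leaving out a number leaves fewer libraries.

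Over all genes, calls moved from 0 to 221 without replicate 2 for glucose in epithelial cells, from 0 to 178 with DESeq2 in stromal cells, from 2397 to 0 without replicate 1 and 1088 without the block between the cell types at 50 mM, and between 2262 and 5527 (2944 in the report) at 5 mM. With insulin the extremes over the alternatives were 0 and 33, 0 and 78 and 0 and 32 in epithelial cells, 0 and 156, 0 and 79 and 0 and 165 in stromal cells (1 ng/mL and 10 ng/mL against vehicle, then between the doses), where the report's fit called 0, 16, 0, 2, 0 and 4. For the difference of effects between cell types they were 0 and 307 with glucose and 0 and 294, 0 and 170 and 0 and 321 with insulin in the same order, where the report's fits called 0, 92, 0 and 105. With 3 libraries a group and few reads for SLC2A4, SLC5A1 and stromal SLC2A5, depth limits what could be told apart for these 3 genes.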
